A study of Homo sapiens with 6 samples.

Results

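The genes described here encode the proteins of the cytosolic ribosome, measured by total RNA sequencing in OVCAR8 cells, an established human ovarian carcinoma line. Members were chosen by symbol: RPL or RPS followed by a number, with an optional A, X or L form, together with RPLP0, RPLP1, RPLP2 and RPSA and without RPS27L. This gave 84 genes with counts, 53 of the large and 31 of the small subunit, of 58037 gene IDs in all. A further 11 Ensembl IDs with a member's symbol had no counts in the deposited table and were left out. Cells were plated in medium with serum, kept without serum for 16 h and then given either nothing (3 libraries, numbered 2, 3 and 4) or 50 ng/mL recombinant human relaxin-2 for 8 h (3 libraries, numbered 1, 2 and 3). Relaxin-2 is a peptide hormone of the insulin superfamily. Both groups were therefore serum-starved before and, as far as the labels say, during the treatment, and all cells came from 1 line. The labels do not say whether the 3 libraries of a group came from separate cultures, so the p-values measure the spread between these libraries, which may be technical.

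A ribosome joins a small subunit, which holds the mRNA and reads its codons, to a large subunit, which forms the peptide bonds. Nearly every ribosomal protein is present once per ribosome and comes from 1 active gene, beside which the genome carries many processed pseudogenes and a few functional paralogues (RPL3L, RPL10L, RPL22L1, RPL26L1, RPL36AL, RPL39L and RPL7L1 among them). The mRNAs are abundant and short, and most begin with a run of pyrimidines after a cytosine, the 5′ terminal oligopyrimidine or TOP tract. This tract lets growth signals through mTORC1 and the binding protein LARP1 set how strongly these mRNAs are translated. Ribosomal protein output is therefore controlled largely in translation and in the making of ribosomes, neither of which an RNA count shows.

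The first bases of the transcripts are shown because this tract is what most members share apart from their function. A start in RefSeq (GRCh38.p14) was found for 67 of the members, with 83 starts. A C at the start followed by at least 4 more C or T was present at 47 of the 83 starts (56.6%), 1 in each of 47 members, against 4.07% of all 35116 starts in the same table. In the windows below, 30 bases long with 10 before the start and 20 from it on, capitals mark the pyrimidine run that begins at the annotated start. The first 6 belong to the members with the highest fitted fold changes and the last 5 to members among the lowest, for which the table held a start.
RPS16, chr19:39435930-39435959, minus strand: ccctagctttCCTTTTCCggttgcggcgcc
RPS28, chr19:8321486-8321515, plus strand: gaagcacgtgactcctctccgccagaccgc
RPLP1, chr15:69452808-69452837, plus strand: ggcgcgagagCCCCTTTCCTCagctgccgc
RPL28, chr19:55385922-55385951, plus strand: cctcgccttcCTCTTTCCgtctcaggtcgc
RPL36, chr19:5690285-5690314, plus strand: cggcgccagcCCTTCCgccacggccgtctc
RPS15, chr19:1438386-1438415, plus strand: aggcgcggaccaaagcgatctcttctgagg
RPS3A, chr4:151099618-151099647, plus strand: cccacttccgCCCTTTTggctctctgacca
RPL21, chr13:27251548-27251577, plus strand: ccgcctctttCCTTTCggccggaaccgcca
RPL26, chr17:8383174-8383203, minus strand: gcgtgtagttCTCTTCCCTTTTgcggccat
RPL22L1, chr3:170870176-170870205, minus strand: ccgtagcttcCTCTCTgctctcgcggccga
RPL39, chrX:119791611-119791640, minus strand: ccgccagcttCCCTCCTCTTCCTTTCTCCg
RPS28 and RPS15 have no run at the start that RefSeq gives, and the other 9 windows have one. The members with the highest and those with the lowest fold changes thus both include TOP starts.

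Promoter windows of 300 bases (250 before and 50 after the start) were searched on both strands for 4 motifs, counted without regard to overlap between them. CCGGAAG, the core that ETS factors such as GABPA bind, was in 32.5% of member windows and 10.3% of all windows. AAGATGG, the YY1 core, was in 10.8% and 5.84%. The E-box CACGTG, which MYC binds, was in 6.02% and 7.26%, and the TATA motif TATAAA in 8.43% and 11.5%. A match in a window is a description of the letters there, not a site.

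Gene reads, counted on the strand that the kit marks, ran from 11939148 to 22426768 per library. Of the ovarian carcinoma markers, KRT8, KRT18, KRT7, PAX8, EPCAM and MSLN had at least 8.55 CPM (read counts scaled to library size) in every library. WT1 (2.61 to 4.17 CPM) and FOLR1 (1.85 to 2.86 CPM) were low, and KRT19 and MUC16 were at or near 0. Leukocyte, endothelial and fibroblast markers summed to at most 2.27 CPM per library and list. Untreated library 2 stood apart, with RN7 RNAs at 0.263% of its gene reads against 0.676% to 0.926% in the other libraries. Relaxin-2 library 2 also stood apart: 27.0% of its reads mapped to several places, against 5.31% to 6.19% elsewhere, and 5.37% of its gene reads were mitochondrially encoded, against 0.859% to 1.41%. The closest pair of libraries, untreated library 4 and relaxin-2 library 1, still differed by more than sampling noise (chi-square per degree of freedom 2.47).

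The members took up a similar part of the transcriptome with and without relaxin-2. They held 4.50%, 4.88% and 5.04% of gene reads in untreated libraries 2, 3 and 4, and 4.88%, 4.76% and 5.02% in relaxin-2 libraries 1, 2 and 3. The groups overlapped, and untreated library 2 was the lowest of the 6. The mean share was 4.81% ± 0.28 (SD, n = 3) untreated and 4.89% ± 0.127 with relaxin-2, a difference of 0.0789 percentage points, which became -0.0764 without untreated library 2 and -0.0153 without both libraries numbered 2. The 95% Wilson interval of a single library's share was at most 0.0242 points wide, so counting error was small beside the spread between libraries. These are shares of a bulk sample, in which fewer cells of a type and less RNA per cell cannot be told apart.

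Large subunit genes held 2.94% ± 0.196 of gene reads untreated and 3.03% ± 0.0716 with relaxin-2. Small subunit genes held 1.86% ± 0.0847 and 1.85% ± 0.0557. The ratio of large to small subunit reads was 1.54, 1.60 and 1.60 in the untreated libraries and 1.64, 1.64 and 1.62 in the relaxin-2 libraries. The ratio was thus higher in each relaxin-2 library than in each untreated one, with means of 1.58 ± 0.0358 and 1.64 ± 0.0105. It is a ratio of summed reads over members of unequal length and GC content, and no test was made on this sum over members.

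Levels were compared between genes as CPM per kilobase of coding sequence. Of the 84 members, 82 passed the filter on low counts and were tested. The 5 highest were RPL41 (5928 CPM per kilobase over the 6 libraries), which encodes the shortest ribosomal protein, RPS18 (3851), a protein of the small subunit head, RPL31 (3031) at the mouth of the peptide tunnel, RPL37A (2621), a zinc-binding protein, and RPS24 (2383), one of the Diamond-Blackfan anaemia genes. Over the 82 tested members the median was 1111 and the interquartile range 627 to 1557. RPL41 stood at 5663 ± 917 untreated and 6194 ± 134 with relaxin-2 (SD, n = 3), which overlap within their spread. The reads of RPL41 were divided by 75 coding bases, although reads from the untranslated parts were counted too, so its value is not a transcript number.

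At the other end stood RPL17 (7.02 CPM per kilobase), RPS10 (26.9), RPL36A (35.0), RPL39L (57.9) and RPL26L1 (101). RPL41 was thus 845 times the level of RPL17, the lowest tested member. The low values of RPL17, RPS10 and RPL36A sit on genes that a read-through gene overlaps on the same strand in GENCODE 29. RPL17-C18orf32 covers 91.0% of the exon bases of RPL17, RPS10-NUDT3 covers 77.0% of RPS10, and RPL36A-HNRNPH2 covers 37.8% of RPL36A. A read in both genes is counted for neither, so these values are lower limits. RPL26 (59.0%) is covered in the same way. Reads that map equally well to a processed pseudogene were also left out by the counting, which lowers members with near-identical copies by an amount not measured here. Below the tested members, RPL3L, the paralogue of RPL3 in striated muscle, had 35 reads over the 6 libraries, and RPL10L, the testis paralogue of RPL10, had 0.

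**Figure D1:**
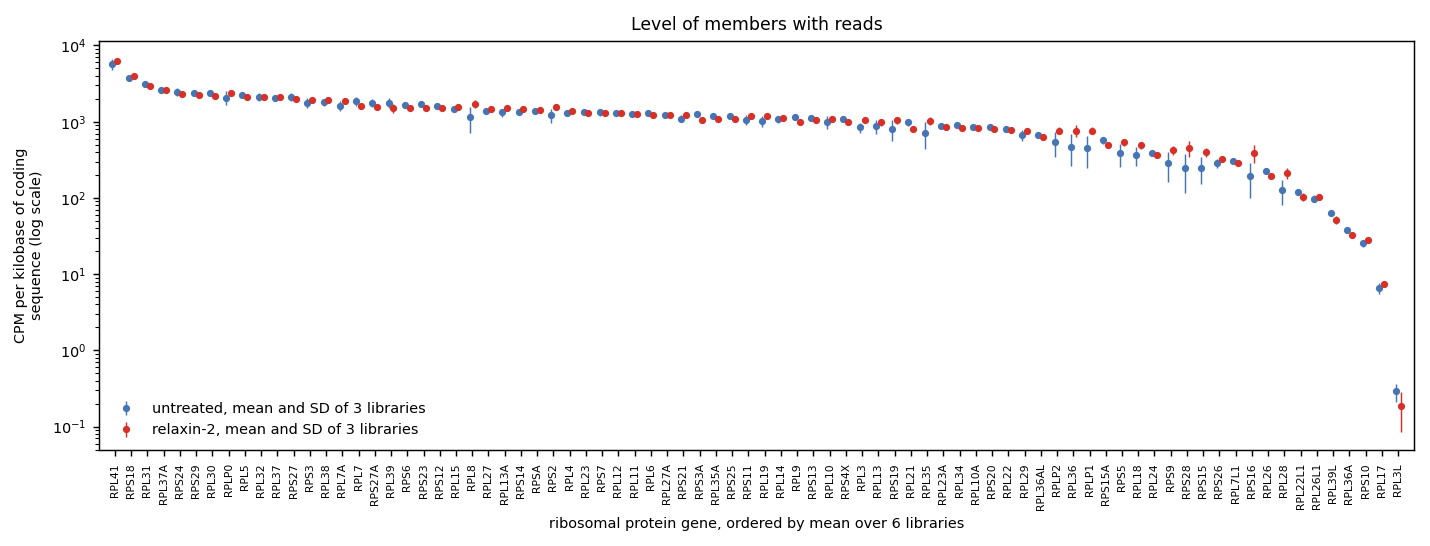
CPM per kilobase of coding sequence (log scale) of 80 members with reads, ordered by their mean over 6 libraries, with the mean and SD of 3 untreated and 3 relaxin-2 libraries. RPL41 is highest and RPL17 is the lowest tested member, and for most genes the group means lie on top of each other.

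No member passed the test for a difference between relaxin-2 and untreated cells. With edgeR's quasi-likelihood test and Benjamini-Hochberg adjustment over the 16740 genes tested, 0 of 82 members had an adjusted p under 0.05 (0% of all genes), and the lowest adjusted p among members was 0.408. DESeq2 also called 0, with 15 members at an unadjusted p under 0.05 (background 10.0% of genes). Of the members, 43 had a fitted fold change above 0 and 39 below, against 47.8% above 0 over all genes tested. At an unadjusted p under 0.05 there were 6 members higher (background 6.3% of genes) and 8 lower (background 4.52%). In either direction that made 14 members (background 10.8%). With 1 library left out this edgeR count ran from 1 (background 2.83%, without relaxin-2 library 2) to 26 (background 20.8%, without untreated library 4). In 14 members every relaxin-2 library was above every untreated one (background 10.8%), and in 17 every one was below (background 10.5%, and 21.4% in either direction). The median log2 fold change was 0.03 over members, 0.02 for the large and 0.04 for the small subunit, and -0.01 over all genes tested. Without untreated library 2 the median over members was -0.0018, and without both libraries numbered 2 it was 0.01. Standard errors of the members' log2 fold changes ran from 0.06 to 0.39 with a median of 0.09.

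The highest fitted fold changes belonged to genes that were low in untreated library 2. RPS16, a protein of the small subunit near the decoding site, stood at 61.0, 60.8 and 132 CPM in untreated libraries 2, 3 and 4 and at 150, 222 and 139 CPM in relaxin-2 libraries 1, 2 and 3. The groups did not overlap, and untreated library 4 lay next to the relaxin-2 values. The log2 fold change was 1.01 ± 0.32 (SE), with an edgeR adjusted p of 0.408, and it was 0.82 without untreated library 2 and 0.60 without both libraries numbered 2.

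RPLP1, which with RPLP2 forms the flexible stalk that recruits elongation factors, had 84.5, 154 and 221 CPM untreated and 230, 279 and 275 CPM with relaxin-2. All relaxin-2 libraries lay above the untreated ones, the lowest of them only just above untreated library 4. Its log2 fold change was 0.77 ± 0.29, and 0.48 without untreated library 2. RPL28, a large subunit protein that bacteria lack, had 34.3, 50.6 and 72.4 CPM untreated and 73.4, 102 and 87.6 CPM with relaxin-2. Its groups met without overlapping, and its log2 fold change was 0.74 ± 0.25, or 0.51 without untreated library 2.

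RPS28, a small subunit protein at the mRNA exit side, had 21.3, 56.9 and 74.0 CPM untreated and 67.6, 110 and 101 CPM with relaxin-2. Here the groups overlapped, with relaxin-2 library 1 below untreated library 4, and the log2 fold change was 0.87 ± 0.39 (0.50 without untreated library 2). Of the reads on both strands of RPS28, 5.92% lay on the opposite strand, the highest share among tested members. RPL36, a large subunit protein, had 73.4, 179 and 194 CPM against 195, 273 and 257 CPM. RPS15, in the head of the small subunit, had 63.0, 119 and 145 CPM against 159, 199 and 157 CPM. In both genes the groups did not overlap, and untreated library 2 lay farther below the other untreated libraries than those lay from each other. Their log2 fold changes were 0.70 ± 0.32 and 0.66 ± 0.27, and 0.37 and 0.38 without untreated library 2. Over these 6 genes the fold changes ran from 0.22 (RPS15) to 0.90 (RPS16) with offsets for GC content and length, from 0.09 (RPL36) to 0.61 (RPS16) with 1 surrogate variable, and from 1.03 (RPS15) to 1.57 (RPS28) with the replicate number as a block. None of the 6 passed in any of these fits.

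**Figure D2:**
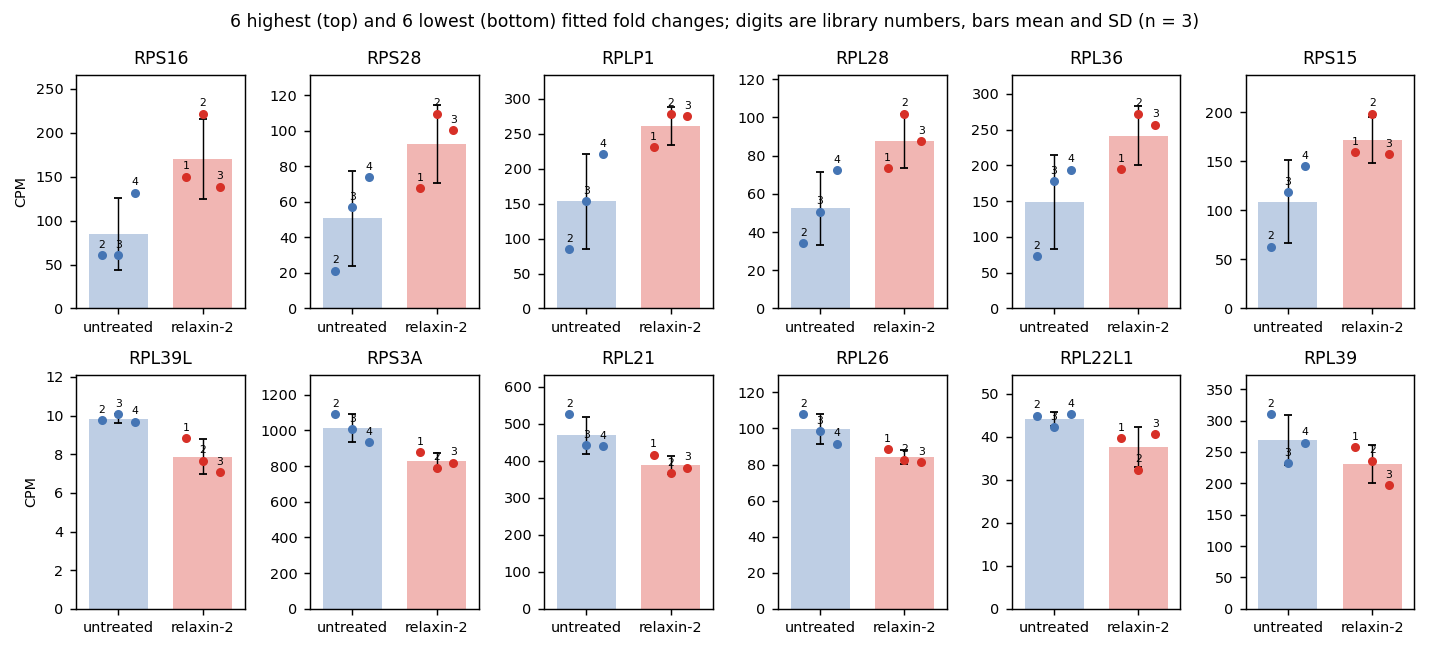
CPM in each library for the 6 members with the highest (top row) and the 6 with the lowest (bottom row) fitted fold changes, with bars for the mean, whiskers for the SD of 3 libraries and digits for the library number. Untreated library 2 is the lowest or shares the lowest level in each top panel, at 61.0 CPM for RPS16 and 21.3 for RPS28, whereas in 4 of the 6 lower panels it is the highest.

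When the filter on low counts was dropped, so that 32407 genes entered the fit, 7 members passed, all of them higher with relaxin-2 (background 0.355% of genes higher and 0.0154% lower). Among them were RPS16 (edgeR adjusted p 0.0150), RPL28 and RPLP1 (both 0.0246), RPS15 (0.0421), RPS28 (0.0463) and RPL36 (0.0489). The fold changes themselves hardly differed between the fits, with RPS16 at 1.01 in both. Under the other alternatives, by edgeR or DESeq2, the lowest adjusted p among members ran from 0.0821 to 0.766 and none passed. The calls on these 7 genes therefore depended on which other genes entered the fit.

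Among the members with lower values, RPS3A, a small subunit protein near the mRNA exit, had 1093, 1008 and 936 CPM untreated and 880, 791 and 819 CPM with relaxin-2. Every relaxin-2 library lay below every untreated one, and within the untreated group library 2 was the highest. The log2 fold change was -0.29 ± 0.08, the smallest p of any member (0.00970 unadjusted, 0.408 adjusted, edgeR), and it was -0.23 without untreated library 2 and -0.19 without both libraries numbered 2. RPL21, a large subunit protein, had 527, 443 and 439 CPM against 417, 368 and 382 CPM, a log2 fold change of -0.27 ± 0.09. RPL26, which lies at the exit of the peptide tunnel, had 108, 98.6 and 91.6 CPM against 88.5, 82.7 and 81.2 CPM, a log2 fold change of -0.24 ± 0.08. In both genes the groups did not overlap, and without untreated library 2 the values were -0.18 and -0.18. With offsets for GC content and length RPS3A, RPL21 and RPL26 were at -0.16, -0.14 and -0.11.

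The lowest fitted value belonged to a paralogue at a low level. RPL39L had 9.77, 10.1 and 9.69 CPM untreated and 8.85, 7.67 and 7.09 CPM with relaxin-2, with no overlap between groups. Its log2 fold change of -0.32 ± 0.13 was -0.33 without untreated library 2, -0.31 without both libraries numbered 2 and -0.25 without relaxin-2 library 3. Its adjusted p was 0.408 in edgeR's test.

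The members differed among themselves mainly along their base composition. Across the 82 tested members, Spearman's rho between log2 fold change and the GC content of the coding sequence was 0.88, and across 12942 tested genes of the whole table with a coding length it was 0.77. The points share 6 libraries, and genes are not independent replicates. With coding length, rho over members was 0.14. Without untreated library 2 the GC relation was 0.78 over members and 0.59 over all genes, without both libraries numbered 2 it was 0.75 and 0.49, and in a fit with offsets for GC content and length it was 0.55 and 0.09. The offsets used the mean GC content and mean length of a gene's annotated transcripts, not the GC content of the coding sequence.

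In single libraries, the deviation of a member from its own mean followed GC content with rho -0.89 in untreated library 2, -0.35 in untreated library 3 and 0.46 in untreated library 4. In relaxin-2 libraries 1, 2 and 3 it was 0.54, 0.84 and 0.84. GC-rich members were thus relatively low in untreated libraries 2 and 3 and relatively high in the others, most of all in relaxin-2 libraries 2 and 3. Untreated library 2 held the lowest value for 43 of the 82 members and the highest for 26. Relaxin-2 library 2 held the lowest for 24 and the highest for 24. The part of base composition in the fold changes was not tested.

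**Figure D3:**
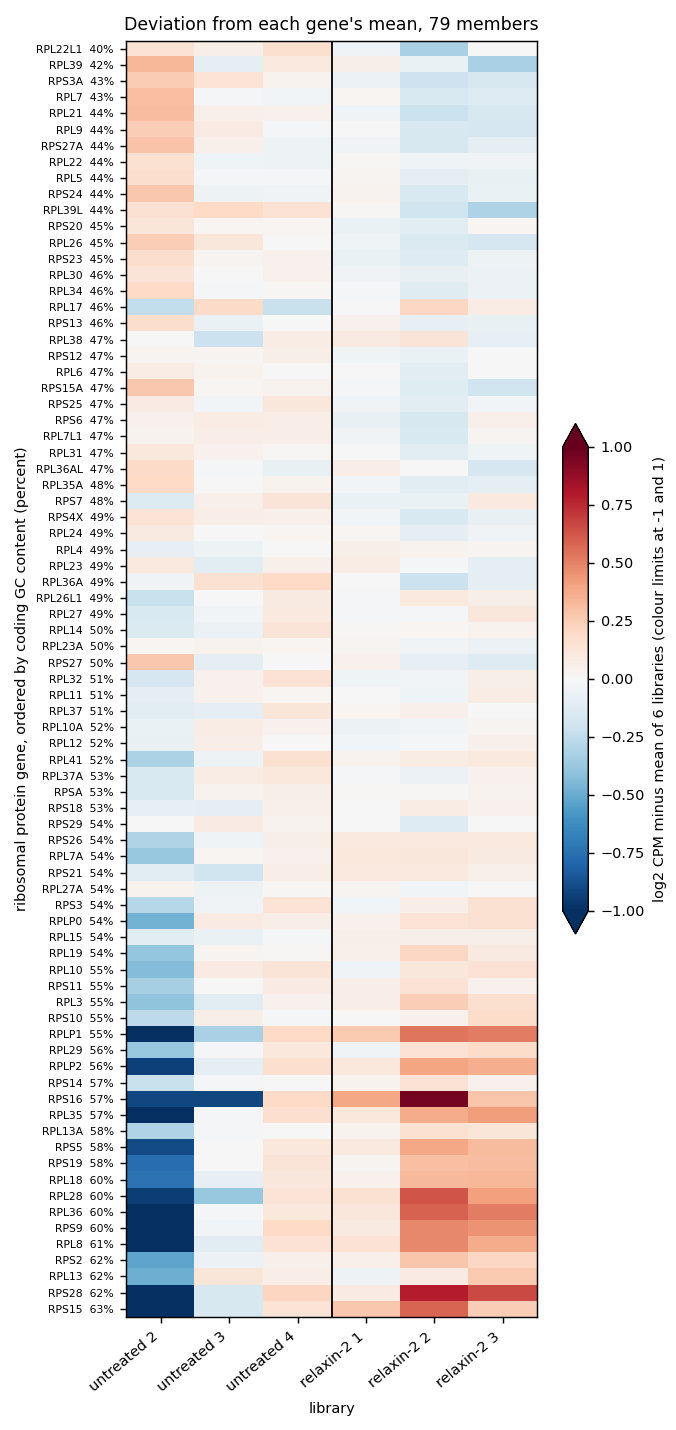
Log2 CPM of 79 tested members, each minus its mean over the 6 libraries, with genes ordered by coding GC content from top (40.4%) to bottom (63.0%) and colours limited at -1 and 1. Untreated library 2 turns from red at the top to blue at the bottom, and relaxin-2 libraries 2 and 3 show the opposite order.

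The 20 members with the highest coding GC content (54.9% to 63.0%) all had fold changes above 0, with a median log2 fold change of 0.51. Without untreated library 2 this median was 0.24, without both libraries numbered 2 it was 0.20, and with offsets for GC content and length it was 0.22. In 19 of these 20 genes the lowest value was in untreated library 2, whose median deviation was -0.92, and in 8 every relaxin-2 library lay above every untreated one (background 10.8% of genes). Of the 20 members with the lowest GC content (40.4% to 46.7%), 18 had fold changes below 0, with a median of -0.15, and in 15 the highest value was in untreated library 2. The median became -0.08 without that library and -0.04 with the offsets. In 9 of them every relaxin-2 library lay below every untreated one (background 10.5% of genes).

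**Figure D4:**
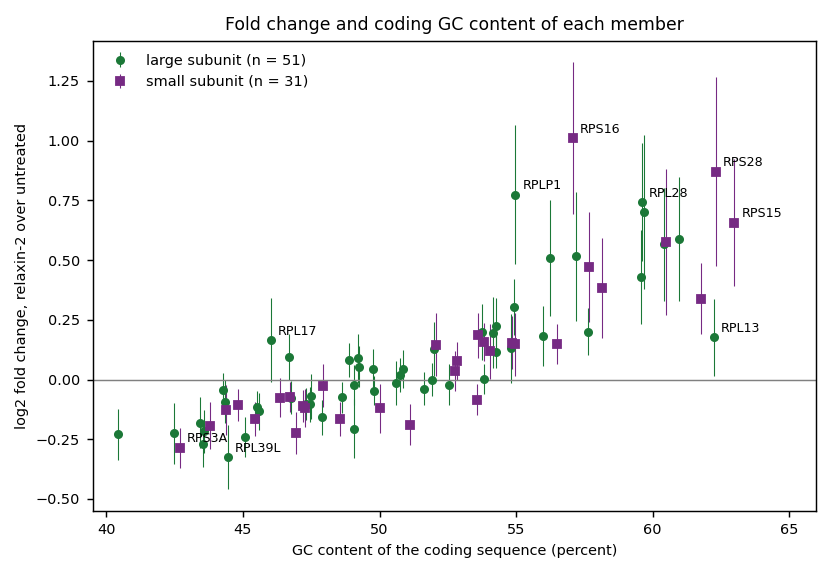
Fitted log2 fold change, relaxin-2 over untreated, with its standard error, against GC content of the coding sequence for 51 large and 31 small subunit members. Members below about 50% GC lie between -0.32 and 0.16, and RPS16 and RPS28 are highest at 57.1% and 62.3% GC.

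Chromosome 19, the chromosome with the most members, carried 12 of them, all with coding GC between 54.9% and 63.0%. All 12 had fold changes above 0, with a median log2 fold change of 0.57, which was 0.29 without untreated library 2 and 0.23 with the offsets. The 70 tested members on other chromosomes had a median of -0.02. The members on chromosome 19 are GC-rich throughout, so location and base composition cannot be told apart there.

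By role in the ribosome, the following genes were picked for their role after the values were seen. RPLP0, the stalk's base, had a log2 fold change of 0.20 ± 0.15, RPLP1 0.77 ± 0.29 and RPLP2 0.51 ± 0.24. All 3 had their lowest value in untreated library 2, without which they were at 0.03, 0.48 and 0.25, and with 1 surrogate variable RPLP0 was at -0.06. RPL5 and RPL11, which bind the 5S RNA and, when free, inhibit MDM2, were at -0.09 ± 0.09 and 0.02 ± 0.07, and both at -0.02 without untreated library 2. RPL5 had 2180, 1899 and 1899 CPM untreated and 1966, 1809 and 1832 CPM with relaxin-2, so its groups overlapped.

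RPS6, whose phosphorylation by S6 kinase is the usual readout of mTORC1 activity, had 1229, 1253 and 1246 CPM untreated and 1129, 1068 and 1235 CPM with relaxin-2, with overlapping groups. Its log2 fold change was -0.12 ± 0.08, and -0.13 without untreated library 2. It was -0.07 without relaxin-2 library 2 and -0.18 without relaxin-2 library 3. RPL10, which joins the large subunit last, was at 0.13 ± 0.14, and at -0.03 without untreated library 2. RPS19, often mutated in Diamond-Blackfan anaemia, was at 0.38 ± 0.21 (0.15 without untreated library 2), and RPS14, the gene lost in the 5q- syndrome, at 0.15 ± 0.08 (0.08 without it). RPS27A, made as a fusion to ubiquitin, was at -0.19 ± 0.10, and at -0.09 without untreated library 2. RPL4, which lines the peptide tunnel, and RPSA, also known as a laminin receptor, were at 0.08 ± 0.07 and 0.04 ± 0.08, and at 0.06 and -0.03 without untreated library 2. None of these passed the test (edgeR adjusted p at least 0.408).

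Between the ends of 28 members, on the same strand, lie 60 annotated genes of small nucleolar or small Cajal body RNAs. Small nucleolar RNAs guide the modification of ribosomal RNA. RPL4 holds 5, and RPL13A, RPL23A and RPL7A hold 4 each. RPL13A had a log2 fold change of 0.20 ± 0.10 and RPL7A of 0.20 ± 0.12, which were 0.11 and 0.07 without untreated library 2, while RPL23A was at -0.05 ± 0.06. The host genes thus had fitted values on both sides of 0.

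The paralogues were compared with their parent genes as a share of the reads of both, which needs no scaling between libraries. With 3 libraries against 3 the smallest p that an exact two-sided permutation test can give is 0.10. No pair could therefore pass at 0.05, whatever its values, and the RPL10L pair had no paralogue reads to compare. The lowest p adjusted over the 7 pairs was 0.467 in this exact test. The most unlike pair in sequence was RPL7 with RPL7L1 (61.7% identity of the coding sequence), and the most alike was RPL39 with RPL39L (94.8%, 8 of 153 bases differing).

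The RPL39 pair is printed because so few bases differ between its coding sequences. The untranslated parts, whose reads were counted too, were not compared. RPL39 (chrX:119786504-119791643, minus strand, GENCODE 29, GRCh38) lines the end of the peptide tunnel, and RPL39L (chr3:187120948-187180908, minus strand), known from spermatogenesis and from many cancers, takes its place in some ribosomes. Capitals mark the bases that differ between the coding sequences of the GENCODE 29 transcripts.
RPL39: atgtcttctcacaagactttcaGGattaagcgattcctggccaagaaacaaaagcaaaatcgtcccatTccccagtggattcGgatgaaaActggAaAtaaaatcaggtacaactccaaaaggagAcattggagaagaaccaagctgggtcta
RPL39L: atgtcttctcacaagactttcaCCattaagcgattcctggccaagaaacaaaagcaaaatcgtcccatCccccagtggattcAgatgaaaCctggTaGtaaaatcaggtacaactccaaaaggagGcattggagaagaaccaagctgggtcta
The longest stretch without a difference is 44 bases. RPL39L made up 3.05%, 4.17% and 3.53% of the pair's reads in untreated libraries and 3.33%, 3.14% and 3.46% in relaxin-2 libraries, all within the untreated range. The mean was 3.58% ± 0.561 untreated and 3.31% ± 0.16 with relaxin-2 (exact permutation p = 0.6). RPL39 itself had 311, 232 and 265 CPM against 257, 236 and 198 CPM, so both genes of the pair had lower means with relaxin-2. Its log2 fold change was -0.23 ± 0.13, and -0.11 without untreated library 2.

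RPL26L1, a close copy of RPL26 on chromosome 5, took 25.7%, 30.7% and 33.7% of the pair's reads untreated and 32.8%, 36.2% and 36.0% with relaxin-2. Relaxin-2 library 1 lay below untreated library 4, so the groups overlapped. The mean was 30.1% ± 4.03 against 35.0% ± 1.88, a difference of 4.95 points (exact permutation p = 0.2) that was 2.79 points without untreated library 2. RPL26 is overlapped by another gene on the same strand and its counts are a lower limit, so the level of the share is an upper one.

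RPL22L1, the paralogue that rises when RPL22 is lost, took 11.9%, 12.7% and 13.5% untreated and 11.6%, 10.0% and 12.2% with relaxin-2. The groups overlapped, with means of 12.7% ± 0.817 and 11.3% ± 1.11 (exact permutation p = 0.2). RPL22L1 alone had 45.0, 42.3 and 45.4 CPM untreated and 39.8, 32.4 and 40.7 CPM with relaxin-2, without overlap, a log2 fold change of -0.23 ± 0.11. Relaxin-2 library 2 was the lowest, and without it the fold change was -0.13 and the difference in share went from -1.41 to -0.793 points. With offsets for GC content and length the fold change was -0.05. RPL22 was at -0.05 ± 0.07, and at 0.02 without untreated library 2.

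RPL36AL, a copy on chromosome 14, was the major gene of its pair, with 94.2%, 92.6% and 92.0% of reads untreated and 93.6%, 94.2% and 93.0% with relaxin-2 (means 93.0% ± 1.14 and 93.6% ± 0.588, exact permutation p = 0.5). As given above, the read-through overlap lowers the counts of RPL36A and so raises this share. RPL7L1, a nucleolar protein of large subunit assembly despite its name, took 12.7%, 15.5% and 15.7% untreated and 14.4%, 14.9% and 16.4% with relaxin-2 (means 14.6% ± 1.68 and 15.2% ± 1.01, exact permutation p = 0.7). Untreated library 2 was the lowest here too, and without it the difference of 0.575 points became -0.392.

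RPL3L took 0.0359% ± 0.0148 of the reads of its pair untreated and 0.0185% ± 0.0104 with relaxin-2 (exact permutation p = 0.2). Of the reads on both strands of RPL3L, 38.6% lay on the opposite strand (22 reads against 35 on its own). RPL10L had 0 of 75520 reads of its pair, which allows a share of up to 0.00397% (3 reads, counting error only). OVCAR8 cells thus showed the 2 tissue-restricted paralogues at or near 0 in every library.

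**Figure D5:**
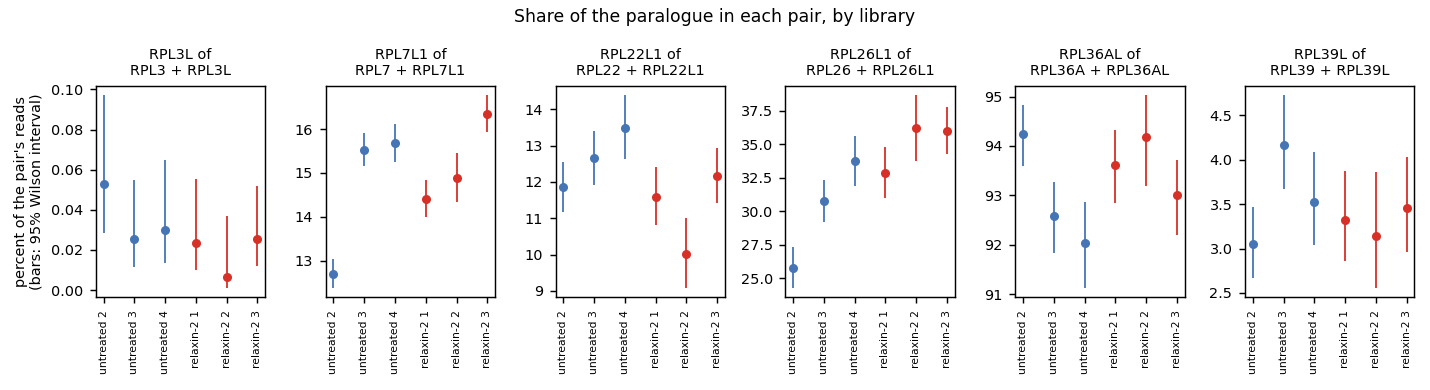
Reads of the paralogue as a percent of the reads of both genes for 6 pairs, per library, with 95% Wilson intervals that cover counting error only and an axis that does not start at 0. RPL26L1 runs from 25.7% in untreated library 2 to 36.2% in relaxin-2 library 2, and in each panel the groups overlap.

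The members were also split by their starts. The median log2 fold change was 0.04 (interquartile range -0.12 to 0.19) over the 47 tested members with a pyrimidine run at a RefSeq start and 0.05 (-0.07 to 0.17) over the 19 tested members with a RefSeq start but no such run. The difference was not tested. Their median coding GC was 52.0% and 49.3%. RefSeq gives a single or few starts per gene, and a member without a run there may still start on one elsewhere.

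The gene sets most like the members had medians below 0, as had all genes tested (-0.01). Of 78 mitochondrial ribosomal protein genes, which serve the separate ribosome of that organelle, 77 were tested: 36 were above and 41 below 0, with a median of -0.02 and 0 called. Of 1145 ribosomal protein pseudogenes 135 were tested, with 56 above and 79 below 0, a median of -0.07 and 0 called. Reads of such pseudogenes made up 0.0778% to 0.0846% of gene reads per library.

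FAU encodes a ribosomal protein fused to a ubiquitin-like part and falls outside the symbol rule. FAU had 83.1, 119 and 121 CPM untreated and 127, 145 and 130 CPM with relaxin-2, a log2 fold change of 0.31 ± 0.14 without overlap between groups. Untreated library 2 was the lowest for this gene too, and without it the fold change was 0.15.

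Of 19 other genes with TOP mRNAs, mainly translation factors, 18 were tested, 7 above and 11 below 0, with a median of -0.04. The smallest p values were those of EEF2, the elongation factor that moves the ribosome along (0.55 ± 0.23), and EIF3E, an initiation factor subunit (-0.22 ± 0.10). Without untreated library 2 they were at 0.32 and -0.11. Of 30 ribosome biogenesis genes 15 were above and 15 below 0, with a median of 0.01. RRS1, needed for large subunit assembly, had 11.7, 12.6 and 12.1 CPM untreated and 15.4, 18.5 and 16.0 CPM with relaxin-2, a log2 fold change of 0.45 ± 0.12 with an edgeR adjusted p of 0.408. The relaxin-2 libraries all lay above the untreated ones, and the untreated ones were close together. UBTF, which binds ribosomal DNA for RNA polymerase I, was at 0.32 ± 0.11. With offsets for GC content and length RRS1 was at 0.19 and UBTF at 0.08.

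Chaperones that hold single ribosomal proteins before assembly were 3 above and 4 below 0 among 7. TSR2, the chaperone of RPS26, was at 0.24 ± 0.10, and GRWD1, the chaperone of RPL3, at 0.42 ± 0.20. GRWD1 had 18.0 CPM in untreated library 2 against 30.3 and 30.6 CPM in the other untreated libraries, and its fold change was 0.20 without that library and -0.02 with the offsets. RPS26 itself was at 0.18 ± 0.10 and RPL3 at 0.30 ± 0.12, and without untreated library 2 they were at 0.09 and 0.19. Of 6 genes that regulate ribosomal protein mRNAs, 5 were above 0, with a median of 0.25 that was 0.13 without untreated library 2 and 0.04 with the offsets. LARP1 had 391, 421 and 457 CPM untreated and 490, 518 and 491 CPM with relaxin-2, without overlap, a log2 fold change of 0.24 ± 0.08. MYC was at 0.26 ± 0.11, at 0.16 without untreated library 2 and at -0.08 with the offsets. None of the genes on these lists passed the test (edgeR adjusted p at least 0.408).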

How the data were processed

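TRIzol RNA went into a strand-marking kit for total RNA, as the labels' protocols state. Raw counts of reads per gene were deposited, and the submitters' processing notes name STAR and hg38. Neither the version of STAR nor the annotation used for counting is stated in these sources. Of the columns per library, the one for the reverse strand was taken, with 17.8 to 19.8 times as many gene reads as its forward counterpart. In the merged count table of the authors all 24635 shared gene IDs had the same values. Left out of library sizes and tests were unmapped, multimapping (5.31% to 27.0%), ambiguous (2.36% to 4.18%) and no-feature (17.5% to 32.0%) reads. Reads that map to several places, including many from genes with processed pseudogenes, are thus not counted.

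Low genes were removed by filterByExpr at its defaults. TMM scaling and the quasi-likelihood F test of edgeR 4.0.16 followed (two-sided, Benjamini-Hochberg adjusted p under 0.05 over all genes tested) in R 4.3.3, with treatment as the only term and all 6 libraries. CPM are scaled by TMM. Coding length, GC content and overlaps come from GENCODE 29 (57429 of 58037 IDs matched), starts from RefSeq on GRCh38.p14. Paralogue shares were compared by exact permutation over the 20 assignments. DESeq2 1.42.0, sva 3.50.0 (1 surrogate variable) and offsets for GC content and length were used in alternatives, and the fits were tested on simulated data. The genes named by a rule set beforehand are the 6 members with the largest fold change and the 4 with the smallest p in each direction, the 5 highest and 5 lowest by level, both genes of each pair, the members not tested, FAU, and the 2 genes of each other list with the smallest p. Other members were named outside this rule, for their role, for the small RNA genes inside them or as partners of a chaperone. A few genes are not reported by name here. The members and gene lists were chosen with earlier results of these data known.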

Additional observations from a re-analysis of the deposited data

How the results depend on the processing

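With the filter on low counts dropped, 7 members passed where 0 did otherwise. In the other 15 alternatives 0 members passed. The median log2 fold change of all members ran from -0.0018 to 0.0654 when 1 library was left out and was -0.0288 with 1 surrogate variable. For the large subunit it was 0.0771 with the replicate block and -0.0349 with the surrogate variable, and 0.0019 to 0.0559 with 1 library left out. For the small subunit it was -0.0265 with the surrogate variable and -0.0040 to 0.0749 with 1 library left out. The cause was not tested.

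Replicate numbers 2 and 3 are shared by the groups and 1 and 4 are not, and the labels do not say what a number means. The correlation of deviations was -0.33 for number 2 and 0.12 for number 3, which did not show the numbers to pair the samples, and their meaning is not known. With the replicate block 0 members passed, the member median was 0.08 and RPL37A went from -0.0214 to 0.0291. As numbers 1 and 4 each belong to a single library, the fold changes with the block rest on libraries 2 and 3 of each group.

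Named members near 0 changed direction. Without both libraries numbered 2, RPL10 was at -0.0394, RPL22 at 0.0442, RPL26L1 at -0.0109, RPL36AL at 0.0033 and RPS24 at 0.0352. With offsets for GC content and length, RPL10 was at -0.0571, RPL31 at 0.0138, RPL36AL at 0.0779 and RPL37A at 0.0463. With 1 surrogate variable, RPL10 was at -0.133, RPL22 at 0.0616, RPL26L1 at -0.0557, RPL36AL at 0.0601, RPL41 at -0.0516, RPL7 at 0.0034 and RPS24 at 0.0512. With 1 library left out, RPL10 ran from -0.0279 to 0.233, RPL22 from -0.0791 to 0.0237, RPL36AL from -0.128 to 0.0089 and RPL37A from -0.0975 to 0.0262. The member share differed by -0.0153 points without both libraries numbered 2 and by -0.0764 to 0.195 points with 1 library left out. The RPL7L1 share differed by -0.224 points without both and by -0.392 to 1.10 points with 1 library left out, and the RPL39L share by -0.536 to 0.0235 points. Where a group of 2 remained, the spread was pooled over both groups. The direction of the member share, of RPL10, RPL22, RPL36AL and of the RPL7L1 share turned without untreated library 2, and that of the RPL39L share without untreated library 3. RPL3L and RPL10L had too few reads for edgeR's test of fold changes. No limit from depth was found for the summed shares, whose counting intervals were narrower than the spread between libraries.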
